A study of Mus musculus with 15 samples.

Results

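EMT6.5 and 4T1.2 are mouse mammary carcinoma lines that are both labelled metastatic and both grow in BALB/c mice, so host strain and metastatic label were held constant while the line differed. The tumours compared were 3 EMT6.5 and 3 4T1.2 primary tumours, chosen by their titles from 15 tumours in all, and all 22008 genes with a symbol on the array entered. EMT6.5 is a clone grown from 1 cell of the EMT6 mammary tumour line. 4T1.2 is likewise a clone of 1 cell, taken from the 4T1 population, which goes back to a mammary tumour of a BALB/c/C3H mouse. Each type is therefore 1 clone, and a difference between them cannot be told apart from a difference between these clones. The cells were cultured in DMEM (EMT6.5) or alpha-MEM (4T1.2) and implanted in the inguinal mammary fat pad of female BALB/c mice, and the sample labels give no treatment or engineered allele for either type. The methods describe 4T1.2 tumours that express the fluorescent protein mCherry for cell sorting, and do not say whether the tumours on the arrays carried it. Mice were 6 to 8 weeks old by the sample labels, an age that the methods state differently, and the methods give a volume at excision of 400 to 600 mm3. The 3 67NR tumours, from a line of the same origin as 4T1 that is labelled non-metastatic and was also grown in BALB/c mice, are quoted beside some genes as a description.

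Whole tumours were profiled, so each array mixes carcinoma cells with fibroblasts, vessels and leukocytes of the host. In such bulk samples fewer cells of a type and less RNA per cell cannot be told apart. Epithelial cells are held together by cadherins and desmosomes, and cells that leave this state lose junctions and gain mesenchymal genes. Carcinoma cells also draw in host cells, since neutrophils and macrophages follow chemokines and colony-stimulating factors, and interferons induce antiviral and antigen-presentation genes. The transcription factor p53 restrains the cell cycle through Cdkn1a and promotes cell death through genes such as Bax.

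RNA was measured on Affymetrix Mouse Gene 1.0 ST arrays, 1 per tumour. Values are log2 signals of transcript clusters, so a difference of 1 is a 2-fold ratio of signals, and a gene is represented by its brightest cluster. Differences are EMT6.5 minus 4T1.2, with standard errors (SE) and p-values from limma fitted to all 15 tumours. Benjamini-Hochberg adjustment ran over the full set of 35556 clusters, and a gene with an adjusted p under 0.05 is called higher or lower. Detection calls were not used, so the lowest signals were not told apart from no expression, and precision is limited by having 3 arrays per type.

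EMT6.5 and 4T1.2 tumours differed in 4327 genes, or 19.7% of those tested. Of these, 2461 were higher (11.2%) and 1866 were lower (8.48%) in EMT6.5. At least 2-fold, 567 genes were higher (2.58%) and 454 lower (2.06%), together 4.64% of all genes. At least 8-fold, 41 were higher and 27 lower, and at least 32-fold 3 and 2. The median difference over all genes was -0.03. Pearson's r across clusters was 0.984 to 0.985 among EMT6.5 arrays, 0.983 to 0.984 among 4T1.2 arrays and 0.954 to 0.963 between the types, over clusters that are not independent replicates. The 67NR tumours lay at a like distance from both, with r of 0.950 to 0.960 to EMT6.5 and 0.948 to 0.957 to 4T1.2. Their mean signal was nearer to EMT6.5 for 1084 of the 2461 genes higher in EMT6.5 and for 1025 of the 1866 lower genes.

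**Figure D1:**
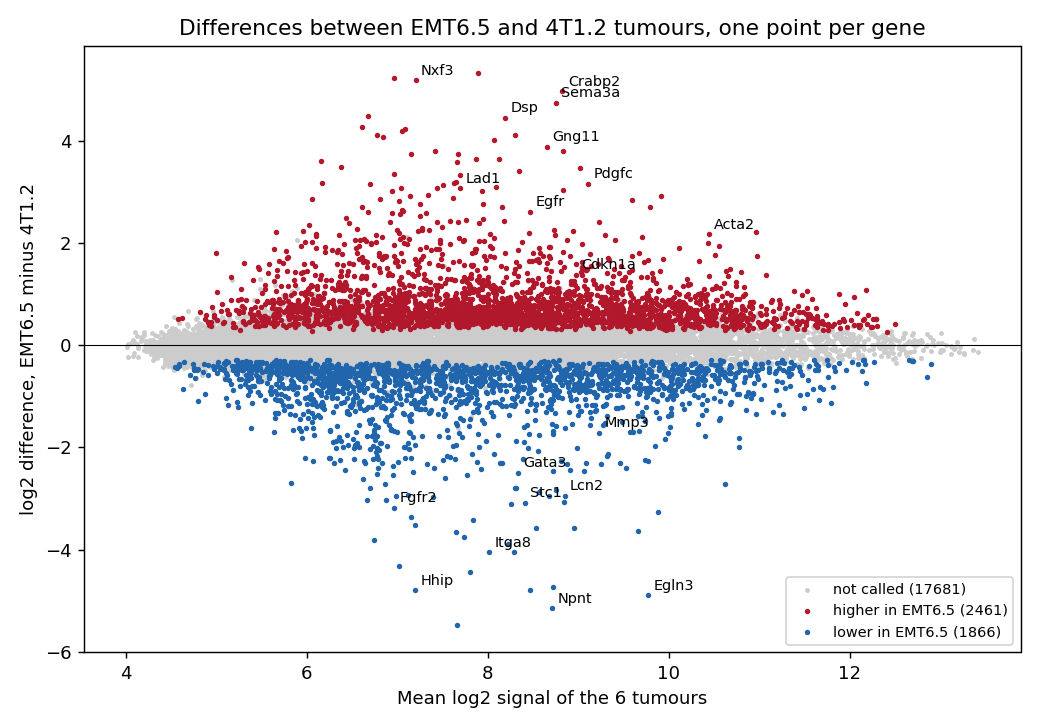
Mean log2 signal of the 6 tumours (horizontal axis) against the log2 difference, EMT6.5 minus 4T1.2 (vertical axis), for 22008 genes, each 1 point. Red points are the 2461 genes called higher and blue points the 1866 called lower in EMT6.5, and differences run past 5 in both directions.

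Some EMT6.5 arrays stood apart from others of their type in muscle, B cell and some other genes, and the source of this signal was not tested. Many skeletal muscle genes were high in EMT6.5 tumours 1 and 3 alone. The fast myosin gene Myh4 had log2 signals of 9.08, 4.57 and 9.62 in EMT6.5 tumours 1 to 3, against 4.74, 4.55 and 4.45 in 4T1.2. The muscle marker Ckm did not follow, with 7.34, 6.94 and 7.16 in EMT6.5 and 6.82, 7.16 and 7.20 in 4T1.2 (difference 0.08, adjusted p = 0.732). Averaged over the 25 muscle genes measured, the log2 signal was 7.28, 5.68 and 7.80 in the EMT6.5 tumours and 5.69 to 5.82 in the 4T1.2 tumours. Of these genes 11 passed as higher, which fell to 1 without EMT6.5 replicate 1, 1 without EMT6.5 replicate 3 and 0 without both, while without EMT6.5 replicate 2 it was 19. It also fell to 5, 2 and 2 without 4T1.2 replicates 1, 2 and 3. EMT6.5 tumour 1 also stood apart in Glycam1, a mucin-like ligand of lymph node venules and milk, with 8.55 there against 5.04 and 5.12 in EMT6.5 tumours 2 and 3 and 5.0 to 5.10 in 4T1.2. The B cell gene Ms4a1 had 8.35, 5.08 and 4.94 in EMT6.5 and 5.04 to 5.52 in 4T1.2, and the B and plasma cell list averaged 6.74 in EMT6.5 tumour 1 against 5.53 and 5.59 in the other two. The prolactin receptor gene Prlr had 8.77, 6.97 and 4.94 in EMT6.5 and 6.29, 7.15 and 6.75 in 4T1.2. Neither Glycam1 (1.17, SE 1.10, adjusted p = 0.546) nor Prlr (0.17, SE 0.69, adjusted p = 0.910) passed by limma.

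The 12 genes that led in EMT6.5 had differences of 4.11 to 5.31. Crabp2, which carries retinoic acid to its nuclear receptor, had log2 signals of 11.26, 11.11 and 11.57 in EMT6.5 tumours, against 6.76, 5.83 and 6.43 in 4T1.2 tumours. It was higher by 4.97 (SE 0.22, 31.4-fold, adjusted p = 1.29e-09), and its mean in 67NR was 6.91. Dsp, which encodes the desmosomal plaque protein desmoplakin, had 10.42, 10.41 and 10.41 in EMT6.5 and 5.99, 5.71 and 6.19 in 4T1.2. The groups were far apart, with a difference of 4.45 (SE 0.14, 21.9-fold, adjusted p = 3.99e-11), and a second, dimmer cluster of Dsp gave 0.47 in the same direction.

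The secreted guidance factor gene Sema3a was near-constant within each type, with 11.09, 11.17 and 11.09 in EMT6.5 and 6.35, 6.46 and 6.32 in 4T1.2. Its difference of 4.74 had a larger error (SE 0.54, adjusted p = 2.60e-05), since the spread is shared over all 5 types, and 67NR lay above both at 12.15. Slitrk6, a membrane protein of neurons and the inner ear, had 8.76, 9.11 and 8.87 in EMT6.5 against 4.49, 4.30 and 4.51 in 4T1.2 (difference 4.48). Megf10, an engulfment receptor, was higher by 4.12 with 8.54, 9.13 and 8.83 in EMT6.5 and 4.24, 4.59 and 5.32 in 4T1.2. The membrane protein gene 2310002L13Rik, now Dynap, showed the highest difference of all called genes, 5.31 (SE 0.16, 39.8-fold, adjusted p = 3.23e-11). Its signals were 10.55, 10.52 and 10.59 in EMT6.5 and 5.0, 5.09 and 5.62 in 4T1.2.

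Morc1, needed for silencing of transposons in mouse male germ cells, had 8.70, 8.68 and 8.87 in EMT6.5 and 4.70, 4.32 and 4.41 in 4T1.2 (difference 4.27, SE 0.13, adjusted p = 3.23e-11). Nxf3, an X-linked member of the nuclear RNA export factor family, had 9.51, 9.94 and 9.94 in EMT6.5 and 4.29, 4.74 and 4.80 in 4T1.2 (difference 5.19, SE 0.31, adjusted p = 3.31e-08). The X-linked testis gene Ott and its neighbour OTTMUSG00000019138, now Gm10439, were higher by 4.22 and 4.19. Near-identical copies of this family can share probe signal, and all 9 clusters of Ott rose, by 3.79 to 4.24, so these count as 1 observation. Ott was higher still in 67NR, at a mean of 10.57, beside 8.83, 9.23 and 9.51 in EMT6.5 and 4.91, 5.04 and 4.96 in 4T1.2. The X-linked transcripts 4933400A11Rik (5.23) and 3830403N18Rik (4.11) complete the 12. Of these, 5 lie on the X chromosome, with Ott and its neighbour counted separately. The X chromosome holds 809 of the 20555 genes placed on an autosome or X.

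The 12 genes that led in 4T1.2 had differences of -3.82 to -5.47. Npnt encodes nephronectin, a basement membrane ligand, and Itga8 encodes an integrin subunit that binds it. Npnt had 6.24, 6.01 and 6.16 in EMT6.5, against 11.09, 11.27 and 11.48 in 4T1.2. It was lower by 5.14 on the log2 scale (SE 0.14, 35.3-fold, adjusted p = 1.84e-11). Itga8 had 5.97, 5.96 and 6.04 in EMT6.5 and 9.90, 10.02 and 10.20 in 4T1.2, and its difference was -4.05 (SE 0.18, adjusted p = 1.67e-09). Both were low in 67NR too, with means of 5.98 and 5.39.

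Tslp, the epithelial cytokine that acts on dendritic cells, was the gene furthest below 4T1.2, at 5.16, 4.73 and 4.87 in EMT6.5 against a mean of 10.39 ± 0.34 (SD, n = 3) in 4T1.2, whose lowest tumour was far above every EMT6.5 tumour (difference -5.47, SE 0.18, 44.3-fold, adjusted p = 9.84e-11). Egln3, a prolyl hydroxylase that marks hypoxia-inducible factor for degradation, had 7.38, 7.48 and 7.10 in EMT6.5 and 12.05, 12.25 and 12.35 in 4T1.2 (difference -4.90, SE 0.13, adjusted p = 1.84e-11). The hedgehog-binding gene Hhip was at 4.78 to 4.81 in EMT6.5 and 9.44 to 9.74 in 4T1.2 (difference -4.80). Tns4, a tensin of focal adhesions, had 5.94, 5.25 and 5.57 in EMT6.5 and 9.68, 10.11 and 10.27 in 4T1.2 (difference -4.44, SE 0.18, adjusted p = 4.81e-10).

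The adhesion receptor Gpr126, now Adgrg6 (-4.79), the microtubule protein Eml5 (-4.73), the carbohydrate kinase Fggy (-4.33) and the filamin regulator Fam101b, now Rflnb (-4.06), followed, together with 2810055F11Rik, now L3hypdh (-3.89), and the unconventional myosin Myo5c (-3.82). For Fggy the value depends on the cluster: 4 of its 5 clusters were called lower, with differences of -2.21 to -4.33, and the fifth gave -0.29 (adjusted p = 0.113).

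**Figure D2:**
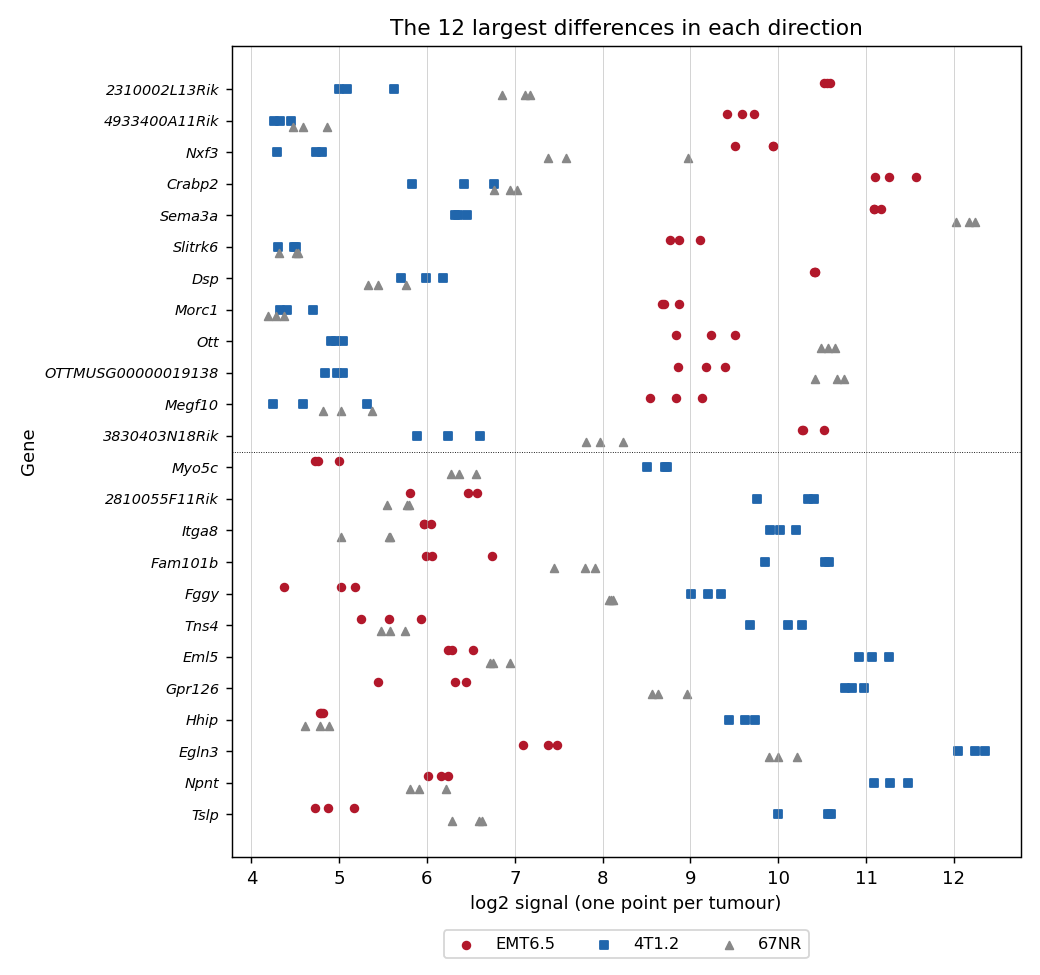
Log2 signal (horizontal axis) of the 12 genes with the largest called difference in each direction, higher in EMT6.5 above the dotted line and lower below it, with 1 point per tumour. EMT6.5 and 4T1.2 points do not overlap for any of these genes, which the choice of the genes fixes, and 67NR points lie on either side.

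Of 42 gene lists written for processes and cell types, those of DNA replication, mitosis, p53 targets and muscle had the largest shares of members higher in EMT6.5, and neutrophil and interferon genes the largest shares lower. The shares are read against the 11.2% of all genes that were higher and the 8.48% that were lower. T and NK cell genes (44 measured) and class II antigen presentation genes (15 measured) had no member past limma's test in either direction. At an unadjusted p under 0.05 they had 4 and 1 higher and 1 and 2 lower, and the one-way analysis of variance called 0. Without EMT6.5 replicate 2, 2 T and NK cell genes and 1 class II gene were higher, and without 4T1.2 replicate 1, 1 class II gene was lower.

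**Figure D3:**
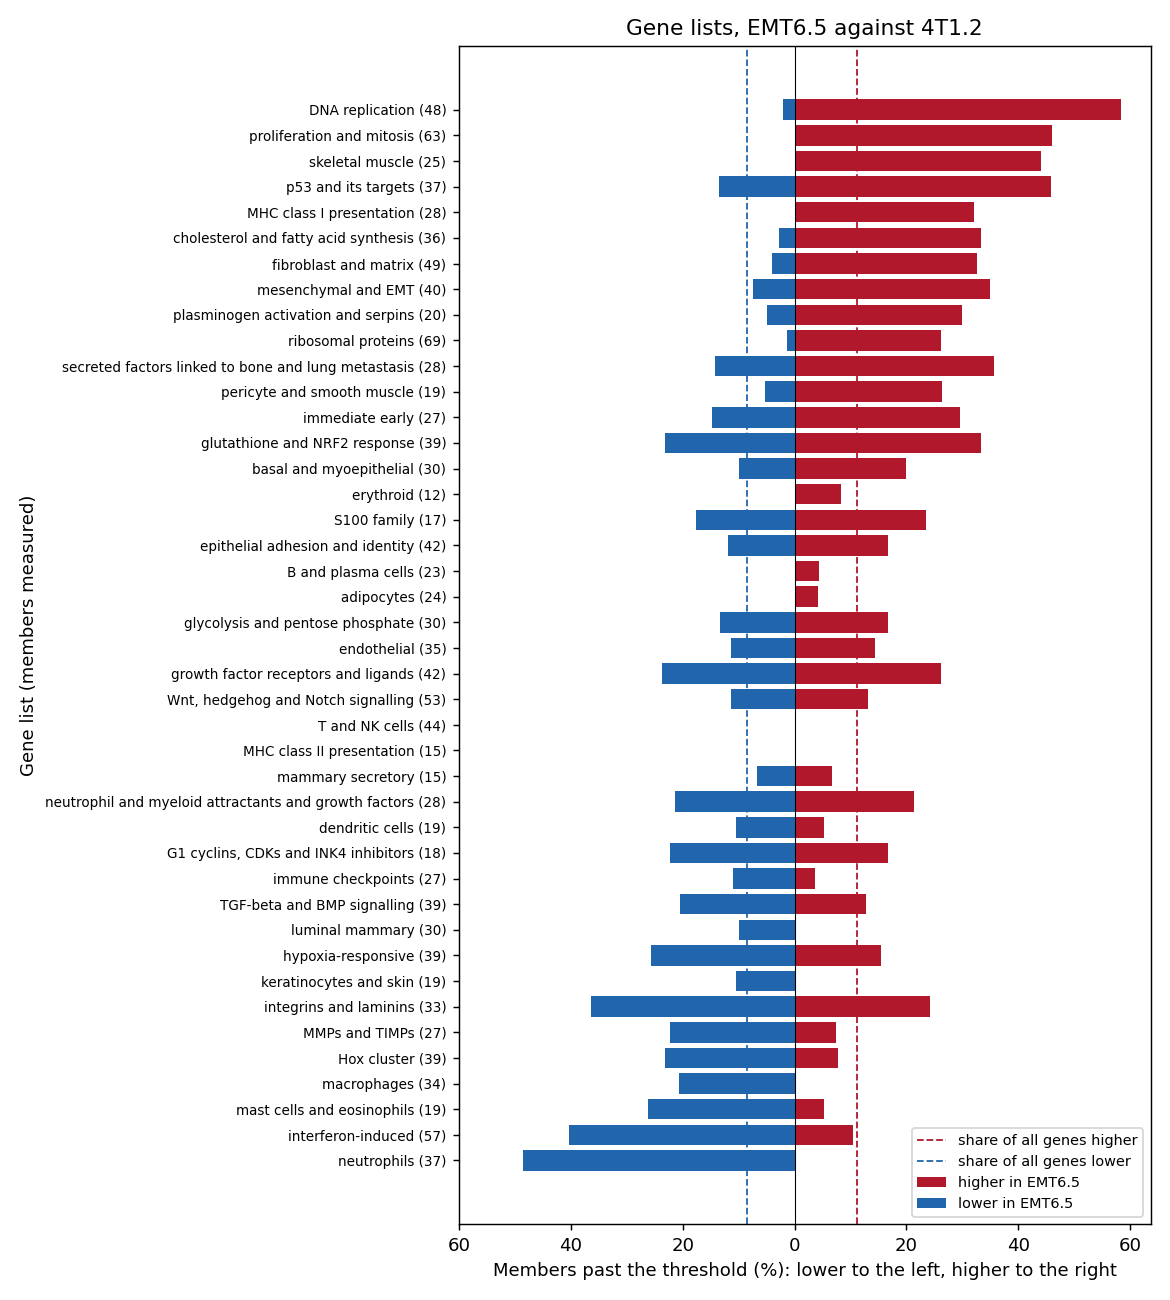
Share of measured members (horizontal axis, percent) called higher in EMT6.5 (red, to the right) and lower (blue, to the left) for each of 42 gene lists, with dashed lines at the shares of all genes, 11.2% and 8.48%. DNA replication reaches 58.3% higher and the neutrophil list 48.6% lower.

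The gene of p53 and a large share of its targets were higher in EMT6.5. Trp53 itself had log2 signals of 10.27, 10.41 and 10.33 in EMT6.5 tumours, against 9.45, 9.25 and 9.05 in 4T1.2 tumours, without overlap. It was higher by 1.09 (SE 0.15, 2.12-fold, adjusted p = 0.000131). Of 37 genes of p53 and its targets, 17 rose (45.9%), 5 fell and 15 missed the threshold, and the median difference was 0.25 against -0.03 over all genes. At least 2-fold, 12 were higher and 1 lower. The list averaged 8.06, 8.12 and 8.12 in EMT6.5 tumours and 7.67, 7.61 and 7.56 in 4T1.2 tumours. It averaged 8.08, 8.13 and 8.09 in 67NR tumours, so 67NR lay level with EMT6.5, and 4T1.2 was the lowest of these types. These signals measure RNA, so neither sequence changes nor the presence of p53 protein can be read from them.

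Among effectors of arrest, Cdkn1a, the cyclin-dependent kinase inhibitor p21, had 9.40, 9.60 and 9.99 in EMT6.5 and 8.30, 8.18 and 8.39 in 4T1.2 (difference 1.38, SE 0.15, adjusted p = 1.87e-05). Sfn, the cell cycle regulator 14-3-3 sigma, was higher by 1.27. Among death genes, Bax had 9.26, 9.66 and 9.18 in EMT6.5 and 7.98, 7.76 and 7.37 in 4T1.2 (difference 1.67, SE 0.23, adjusted p = 0.000129), and the TNF-family receptor gene Eda2r had 7.13, 7.17 and 7.20 in EMT6.5 and 5.32, 5.14 and 5.26 in 4T1.2 (difference 1.93, SE 0.13, adjusted p = 1.21e-07). The RNA-binding target Zmat3 (1.73), the epoxide hydrolase Ephx1 (2.46) and the spindle-associated Ckap2 (1.32) rose as well.

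The 5 members that fell, chosen for naming after their values were seen, were the stress-response genes Sesn1 (-1.02) and Gadd45a (-0.78), the ribonucleotide reductase subunit Rrm2b (-0.68), the autophagy gene Ei24 (-0.54) and the repair gene Xpc (-0.40). Sesn1 and Gadd45a passed whichever tumour was left out, whereas the number of members lower fell to 2 without EMT6.5 replicate 1 or 4T1.2 replicate 1 and to 3 without EMT6.5 replicate 2 or 4T1.2 replicate 2. Mdm2, whose product degrades p53, differed by 0.24 and did not pass. Cdkn2a, which encodes p16 and the p53 activator p19ARF, was at 5.64, 5.39 and 5.72 in EMT6.5 and 5.62, 5.14 and 5.36 in 4T1.2 (difference 0.21, adjusted p = 0.354).

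A promoter sequence was available for 29 of the 37 genes (RefSeq, GRCm38.p6). The 250 bases before the start were searched on both strands for the p53 response element, a pair of adjacent half-sites of 10 bases. The core of each half-site (C, A or T, A or T, G) had to match, and up to 3 mismatches were allowed at the other bases. This element was found in 6 of the 29 (20.7%), in 4 of 16 with a promoter that were higher (25.0%) and in 2 of 13 that were not (15.4%), against 0.566% of 27025 genes in the table. Since p53 targets were partly defined by such elements, the share in the list is a description. The 4 promoters of genes that rose are shown with 20 bases on each side, in the direction of transcription, with the element in capitals. Cdkn1a has the element at chr17:29090928-29090947 on the plus strand with 1 mismatch, and Ckap2 at chr8:22186003-22186022 on the minus strand with 2. Trp53 has it at chr11:69580284-69580303 and Aen, a p53-induced nuclease gene, at chr7:78895937-78895956, both on the plus strand and each with 3.
Cdkn1a: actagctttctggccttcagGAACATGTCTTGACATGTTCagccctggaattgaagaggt
Ckap2: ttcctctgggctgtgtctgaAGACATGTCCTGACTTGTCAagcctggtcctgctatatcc
Trp53: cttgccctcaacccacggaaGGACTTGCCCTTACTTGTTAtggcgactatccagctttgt
Aen: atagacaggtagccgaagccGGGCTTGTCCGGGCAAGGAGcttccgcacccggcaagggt
The 2 other elements lie before Bbc3 and 9630033F20Rik, now Tigar, which differed by -0.11 and 0.22 and did not pass. A match says only that these letters are present.

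Many genes of DNA replication and mitosis were higher in EMT6.5 as well, by less than the leading genes. Of 48 replication genes, 28 rose (58.3%), 1 fell and 19 missed the threshold, with a median difference of 0.52. Uhrf1, which maintains DNA methylation at replication forks, had 9.47, 9.96 and 9.90 in EMT6.5 and 8.29, 8.30 and 7.53 in 4T1.2 (difference 1.73, SE 0.20, adjusted p = 2.82e-05). The chromatin assembly gene Chaf1b rose by 1.24, the clamp loader Rfc3 by 1.23, the polymerase alpha gene Pola1 by 1.12, the helicase subunit Mcm5 by 1.07 and the replicative helicase component Cdc45l by 1.00. The exception was the polymerase epsilon subunit Pole2 (-0.61).

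Of 63 mitotic and proliferation genes, 29 were higher (46.0%) and 0 lower by limma, also 0 at an unadjusted p under 0.05 and by one-way analysis of variance, with a median of 0.42. The count was 19 without 4T1.2 replicate 3. The chromosomal kinesin gene Kif4 led with 10.16, 10.21 and 10.37 in EMT6.5 and 8.85, 8.63 and 8.61 in 4T1.2 (difference 1.55, SE 0.11, adjusted p = 2.83e-07). Birc5, the survivin gene, had 10.31, 10.52 and 10.56 in EMT6.5 and 9.54, 9.10 and 9.11 in 4T1.2 (difference 1.21). The cohesin regulator Cdca5 (1.17), the abscission gene Cep55 (1.04) and the mitotic kinase Plk1 (1.00) also rose. The proliferation marker Mki67 had 10.90, 10.79 and 10.89 in EMT6.5 and 10.76, 10.57 and 10.73 in 4T1.2, and its difference of 0.17 (SE 0.12, adjusted p = 0.406) did not pass. Among 18 cyclins, kinases and inhibitors of G1, 3 rose (16.7%) and 4 fell (22.2%). Those that rose were Cdkn1a, the transcription factor E2f3 (0.72) and the kinase Cdk6 (0.56). The 4 that fell were Mtap (-1.23), a metabolic gene next to Cdkn2a, the inhibitors Cdkn2c (-0.85) and Cdkn1b (-0.58), and Ccnd1 (-0.52), the gene of cyclin D1. Cdk6 did not pass without EMT6.5 replicate 2 or 4T1.2 replicate 3 (adjusted p = 0.0683 and 0.0508), nor Cdkn1b without EMT6.5 replicate 2 (adjusted p = 0.0599).

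Neutrophil genes were lower in EMT6.5. Of 37 measured, 18 were lower (48.6%), 11 of them at least 2-fold, with a median difference of -0.60. By limma 0 were higher, also at an unadjusted p under 0.05 and by one-way analysis of variance. The list averaged 6.26, 6.24 and 6.28 in EMT6.5 tumours and 6.98, 6.95 and 7.15 in 4T1.2 tumours, on the log2 scale and without overlap. The inflammatory calcium-binding genes S100a8 and S100a9 had 5.61, 5.81 and 5.62 and 6.18, 6.75 and 6.45 in EMT6.5, against 7.96, 7.63 and 8.12 and 8.57, 8.46 and 8.87 in 4T1.2. They were lower by 2.23 (SE 0.25, adjusted p = 1.86e-05) and 2.17 (SE 0.25, adjusted p = 2.47e-05) on the log2 scale. The 67NR means were 5.87 and 6.78.

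Lcn2, which encodes the iron-sequestering lipocalin of neutrophil granules and of some carcinoma cells, had 7.95, 7.36 and 6.81 in EMT6.5 and 10.17, 10.08 and 10.71 in 4T1.2 (difference -2.95, SE 0.34, adjusted p = 2.54e-05). Retnlg, a secreted product of neutrophils, was at 5.44 to 6.09 in EMT6.5 and 7.77 to 8.61 in 4T1.2 (difference -2.36). The citrullinating enzyme gene Padi4 (-1.99), the formyl peptide receptor Fpr1 (-1.71) and the chemokine receptor Il8rb, now Cxcr2 (-1.33), fell too. Csf3r, the receptor of granulocyte colony-stimulating factor and a defining marker of the lineage, had 5.72, 5.88 and 6.17 in EMT6.5 and 6.68, 6.01 and 7.09 in 4T1.2 (difference -0.67, adjusted p = 0.0632). That difference passed without 4T1.2 replicate 2 (adjusted p = 0.00478). Csf3, the ligand, was near the lowest signals in both, at 4.81, 4.96 and 4.73 in EMT6.5 and 5.11, 5.33 and 5.53 in 4T1.2, a difference of -0.49 (adjusted p = 0.0204) that did not pass without EMT6.5 replicate 1 or 3 or without 4T1.2 replicate 2 or 3 (adjusted p = 0.0570, 0.0787, 0.0542 and 0.0931).

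Of 28 attractants and growth factors of myeloid cells, 6 rose (21.4%) and 6 fell (21.4%). The interleukin-6 family cytokine Lif had 9.18, 9.47 and 8.62 in EMT6.5 and 7.38, 7.27 and 7.22 in 4T1.2 (difference 1.80, SE 0.18, adjusted p = 8.20e-06). Il6 (1.35) and the CSF1 receptor ligand Il34 (1.17) were also higher, whereas the monocyte chemokine Ccl12 (-1.14) and the neutrophil chemokine Cxcl5 (-1.10) were lower. The platelet chemokine Pf4 differed by -1.22, a call that ended without EMT6.5 replicate 1 or 2 or 4T1.2 replicate 1 (adjusted p = 0.0840, 0.0529 and 0.0664).

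Macrophage genes went down in part. Of 34, 7 were lower (20.6%), or 4 without 4T1.2 replicate 2, with a median of -0.36. By limma 0 were higher, also at an unadjusted p under 0.05 and by one-way analysis of variance. Gpnmb, a lysosomal glycoprotein of macrophages and some tumours, had 5.51, 5.37 and 5.63 in EMT6.5 and 7.80, 8.45 and 8.41 in 4T1.2 (difference -2.71, SE 0.24, adjusted p = 2.00e-06). The scavenger receptors Cd163 (-1.39) and Mrc1 (-0.81) fell, while the defining markers Csf1r (-0.35, adjusted p = 0.276), Emr1, now Adgre1 (-0.43, adjusted p = 0.101) and C1qa (-0.33, adjusted p = 0.271) did not pass. The pan-leukocyte gene Ptprc had 11.17, 10.63 and 10.61 in EMT6.5 and 11.06, 11.26 and 11.19 in 4T1.2 (difference -0.37, adjusted p = 0.146), and passed without EMT6.5 replicate 1 (adjusted p = 0.0223). The T cell gene Cd3e was at 7.92, 6.46 and 7.14 in EMT6.5 and 6.6, 6.58 and 6.47 in 4T1.2 (difference 0.63, adjusted p = 0.280), with EMT6.5 tumour 1 again the highest.

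Interferon-induced genes were lower more often than higher. Of 57, 23 were lower (40.4%, against 8.48% of all genes), with a median of -0.37. Only 6 were higher (10.5%), near the 11.2% of all genes. The list average nevertheless overlapped, at 8.73, 8.59 and 9.10 in EMT6.5 and 8.97, 9.09 and 9.07 in 4T1.2. Those lower included the antiviral effectors Isg15, Oas1a and Rsad2. Isg15 had 7.71, 8.32 and 9.13 in EMT6.5 and 9.54, 10.24 and 9.25 in 4T1.2 (difference -1.29, SE 0.31, adjusted p = 0.0101). The groups were close, and the call ended without 4T1.2 replicate 2 (adjusted p = 0.0521). Oas1a (-1.06) likewise lost its call without EMT6.5 replicate 2 or 4T1.2 replicate 1 (adjusted p = 0.0629 and 0.0577), and Rsad2 was lower by 1.04 (SE 0.26, adjusted p = 0.0119). The number of members lower fell to 15, 13 and 14 without EMT6.5 replicate 1, without EMT6.5 replicate 2 and without 4T1.2 replicate 2.

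The guanylate-binding GTPases went the other way. Gbp2 had 11.28, 11.37 and 11.62 in EMT6.5 and 9.35, 10.05 and 10.39 in 4T1.2 (difference 1.5, SE 0.22, adjusted p = 0.000232). Gbp3 was at 1.48 and the cluster labelled Gbp6, now Gbp7, at 1.34. The exonuclease gene Isg20 (0.63) and the GTPase gene Irgm1 (0.46), also of the 6 and named after their values were seen, rose by less. Without EMT6.5 replicate 3 or 4T1.2 replicate 2, 3 members were higher. Gbp2, Gbp3 and Gbp6 passed whichever tumour was left out. Of 28 class I antigen presentation genes, 9 were higher (32.1%), with a median of 0.25. By limma 0 were lower, also at an unadjusted p under 0.05 and by one-way analysis of variance. H2-Q7, a non-classical class I gene, had 11.45, 11.11 and 11.43 in EMT6.5 and 10.03, 9.80 and 10.11 in 4T1.2 (difference 1.35, SE 0.18, adjusted p = 9.42e-05). H2-Q8 (0.99), the immunoproteasome subunit Psmb9 (0.82) and the peptide transporter Tap1 (0.71) rose too, and probes of class I genes can share signal between near-identical copies.

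**Figure D4:**
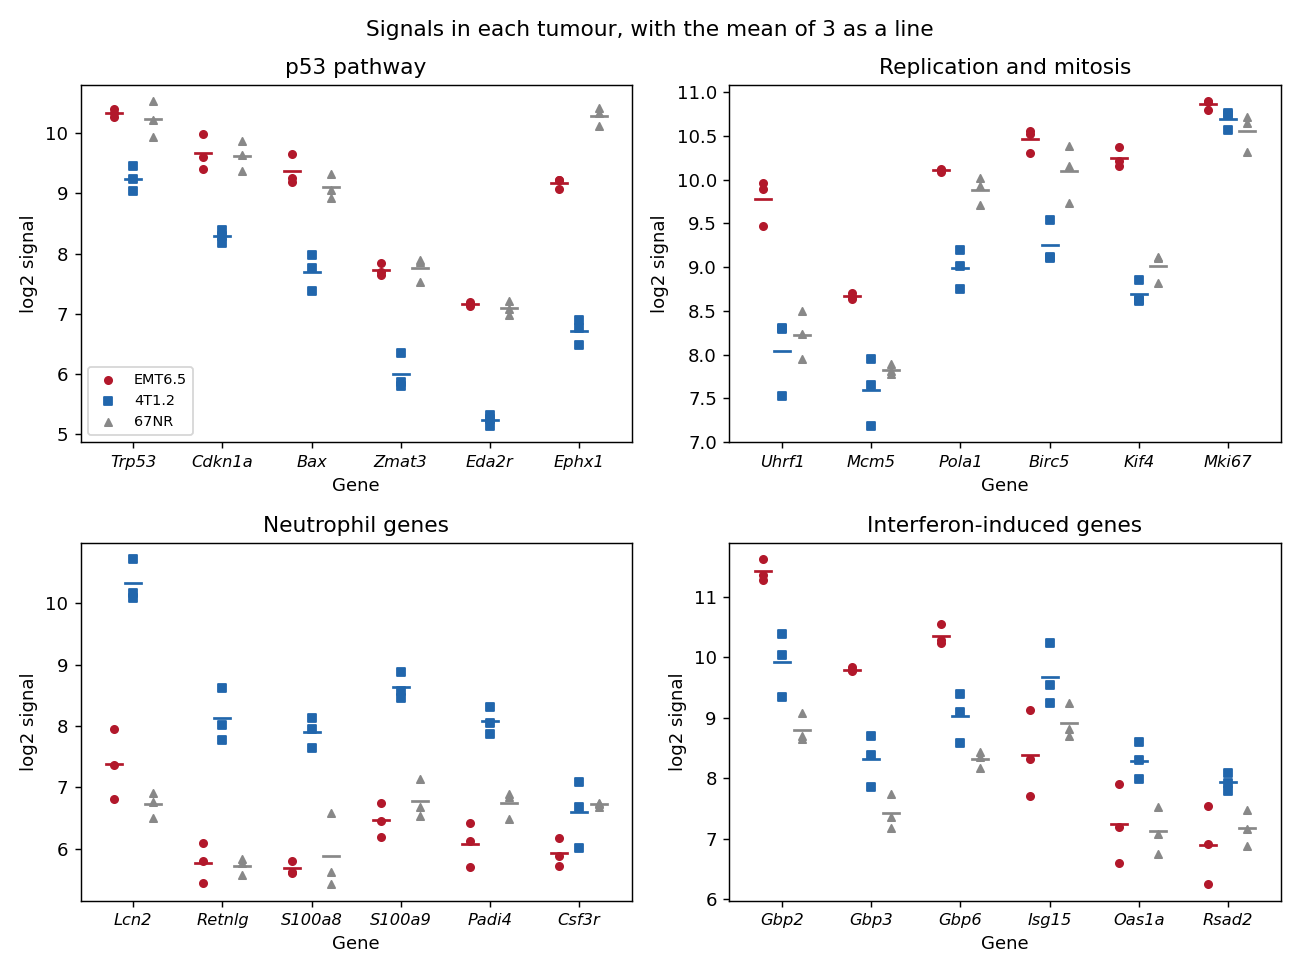
Log2 signal (vertical axis) of 6 genes in each of 4 groups, 1 point per tumour with the mean of 3 as a line, EMT6.5 at the left of each gene, then 4T1.2 and 67NR. The p53 and neutrophil genes other than Csf3r do not overlap between EMT6.5 and 4T1.2, Mki67 differs by 0.17, and the interferon genes run both ways.

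The epithelial state of the 2 types differed gene by gene and not as a whole. Of 42 epithelial genes, 7 were higher (16.7%) and 5 lower (11.9%), with a median of 0.07. Beside Dsp, the plakoglobin gene Jup, also of desmosomes, had 8.79, 9.49 and 9.09 in EMT6.5 and 7.37, 7.65 and 7.48 in 4T1.2 (difference 1.62, SE 0.20, adjusted p = 5.57e-05). Lad1, an anchoring filament protein, had 8.97, 9.26 and 9.46 in EMT6.5 and 6.27, 6.15 and 6.04 in 4T1.2 (difference 3.07, SE 0.13, adjusted p = 6.24e-10). By contrast the surface glycoprotein Cd24a had 7.97, 6.51 and 6.26 in EMT6.5 and 9.59, 9.69 and 9.83 in 4T1.2 (difference -2.79, SE 0.44, adjusted p = 0.000440), and 67NR had a mean of 10.43. The matriptase inhibitor Spint1 (-1.43) and the tricellular junction gene Lsr (-1.14) fell.

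Of the markers that define an epithelial cell, Cdh1 and Epcam were low in both types, and Krt8 and Krt18 were well expressed, with differences of opposite sign of which Krt8 alone passed. Cdh1, which encodes E-cadherin, had 6.81, 6.91 and 6.23 in EMT6.5 and 6.24, 6.37 and 6.35 in 4T1.2 (difference 0.33, adjusted p = 0.208). It passed without EMT6.5 replicate 3 (adjusted p = 0.0204). Epcam had 6.76, 6.40 and 5.24 in EMT6.5 and 5.71, 5.73 and 5.87 in 4T1.2 (difference 0.36, adjusted p = 0.553). The simple keratins Krt8 and Krt18 ranged from 9.93 to 10.55 and from 9.37 to 10.60 over the 6 tumours, and neither overlapped between the types. Krt8 differed by 0.45 (adjusted p = 0.0367), a call that ended without any of EMT6.5 replicates 1 to 3 (adjusted p = 0.0638, 0.0936 and 0.0983) or without 4T1.2 replicate 1 or 3 (adjusted p = 0.117 and 0.0836). Krt18 differed by -0.64 (adjusted p = 0.0556) and passed without EMT6.5 replicate 3 (adjusted p = 0.0165). Vim was among the brightest genes, with means of 12.96 ± 0.05 in EMT6.5 and 13.05 ± 0.09 in 4T1.2 (SD, n = 3 each, difference -0.09, adjusted p = 0.520), and the N-cadherin gene Cdh2 was low in both (difference 0.20, adjusted p = 0.395).

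Mesenchymal genes were higher more often than lower. Of 40, 14 rose (35.0%) and 3 fell, with a median of 0.23. The repressor of E-cadherin Zeb1 had 9.57, 9.52 and 9.55 in EMT6.5 and 7.97, 7.5 and 7.92 in 4T1.2 (difference 1.75, SE 0.12, adjusted p = 1.14e-07). The G protein subunit Gng11 had 10.54, 10.71 and 10.54 in EMT6.5 and 6.78, 6.98 and 6.38 in 4T1.2 (difference 3.88), and the semaphorin co-receptor Nrp1 rose by 2.11. The fibronectin receptor subunit Itga5 (1.68), the collagen crosslinker Loxl2 (1.80) and the growth factor Tgfb2 (1.65) rose too. The 3 that fell were Tgfb3 (-1.06) and the forkhead genes Foxc2 (-0.93) and Foxc1 (-0.64), named after their values were seen. The E-box sequences CACCTG and CAGGTG, which are the reverse complement of each other and which Zeb1 and related repressors bind, occur within 250 bases before the start in 17 of 26 epithelial genes with a promoter (65.4%). They occur in 19.4% of all genes in the table, in 4 of 8 called epithelial genes and in 13 of 18 not called.

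Few luminal genes passed. Of 30, 3 were lower, a share near the 8.48% of all genes, and the median difference was 0.0994. By limma 0 were higher, against 11.2% of all genes. At an unadjusted p under 0.05, 2 were higher, and by one-way analysis of variance 0. Without EMT6.5 replicate 2, 1 was higher, and without EMT6.5 replicate 3, 3 were. Gata3, the transcription factor of luminal mammary cells, had 7.5, 7.46 and 6.29 in EMT6.5 and 9.88, 9.38 and 9.49 in 4T1.2 (difference -2.50, SE 0.25, 5.65-fold, adjusted p = 7.27e-06). The AP-2 factors Tcfap2a (-0.90) and Tcfap2c (-0.52) also fell, the second not without EMT6.5 replicate 3 (adjusted p = 0.0748) or without 4T1.2 replicate 2 or 3 (adjusted p = 0.0586 and 0.0704). Hormone and growth factor receptors used to class breast tumours did not pass for Esr1 (0.11, adjusted p = 0.642), Pgr (0.22, adjusted p = 0.770) and Erbb2 (0.19, adjusted p = 0.516). Esr2 was near the lowest signals, at 5.39, 5.62 and 5.6 in EMT6.5 and 5.30, 4.95 and 4.93 in 4T1.2 (difference 0.48, adjusted p = 0.00756).

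Basal genes were higher more often than lower. Of 30, 6 rose and 3 fell. Egfr had 9.57, 10.04 and 9.70 in EMT6.5 and 7.49, 6.99 and 7.0 in 4T1.2 (difference 2.61, SE 0.14, 6.11-fold, adjusted p = 9.73e-09). The smooth muscle actin gene Acta2, of myoepithelial cells, myofibroblasts and pericytes, had 11.37, 11.77 and 11.43 in EMT6.5 and 9.28, 9.41 and 9.38 in 4T1.2 (difference 2.17, SE 0.17, adjusted p = 5.72e-07). The difference was also present in EMT6.5 tumour 2, which lacked the muscle signal. The caveolin gene Cav1 rose by 1.74. Beside Tns4, the laminin receptor subunit Itga6 fell by 1.71 on the log2 scale. Krt5 had 6.67, 6.15 and 5.31 in EMT6.5 and 5.45, 5.54 and 5.33 in 4T1.2 (difference 0.60, adjusted p = 0.118), and passed without EMT6.5 replicate 3 (adjusted p = 0.00162). Krt6a differed by 0.01 (adjusted p = 0.987).

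Matrix and stromal genes were higher in EMT6.5 more often than lower. Of 49 fibroblast and matrix genes, 16 rose (32.7%) and 2 fell, with a median of 0.35. The chains of type I collagen were among them. Col1a2 had 9.65, 9.73 and 9.43 in EMT6.5 and 8.09, 8.42 and 7.75 in 4T1.2 (difference 1.52, SE 0.14, adjusted p = 3.61e-06), and Col1a1 had 9.12, 9.23 and 8.71 in EMT6.5 and 8.45, 8.42 and 8.02 in 4T1.2 (difference 0.72, SE 0.16, adjusted p = 0.00512). The matricellular gene Thbs1 rose by 1.02, and the collagen-binding proteoglycan Aspn by 1.12, which did not pass without EMT6.5 replicate 2 or 4T1.2 replicate 3 (adjusted p = 0.0572 and 0.0707). The growth factor receptor Pdgfra, a defining marker of fibroblasts, went the other way, with 8.61, 8.37 and 8.30 in EMT6.5 and 9.73, 9.79 and 10.02 in 4T1.2 (difference -1.42, SE 0.11, adjusted p = 6.35e-07), as did Fbln1 (-0.54), and decorin, Dcn, differed by -0.33 (adjusted p = 0.304).

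Endothelial markers did not pass for Pecam1 (0.14, adjusted p = 0.575), Cdh5 (0.24, adjusted p = 0.227) and Kdr (0.20, adjusted p = 0.438). Of 35 endothelial genes 4 fell (11.4%) and 5 rose (14.3%), near the 8.48% and 11.2% of all genes. The number that rose was 3 without EMT6.5 replicate 2, EMT6.5 replicate 3 or 4T1.2 replicate 2 and 2 without 4T1.2 replicate 3. Eng, the TGF-beta co-receptor endoglin, had 7.5, 7.66 and 7.58 in EMT6.5 and 9.18, 9.46 and 9.34 in 4T1.2 (difference -1.74, SE 0.09, adjusted p = 8.41e-09). The tip-cell genes Apln (-0.99) and Esm1 (-0.89) fell, and Pdpn, which encodes podoplanin of lymphatic endothelium and of some stromal and tumour cells, rose by 1.24. Cd36, the fatty acid translocase of adipocytes, capillaries and macrophages, had 10.35, 10.07 and 9.99 in EMT6.5 and 8.87, 9.61 and 8.49 in 4T1.2 (difference 1.15, adjusted p = 0.0287). It was the 1 adipocyte gene of 24 that passed, and it did not without EMT6.5 replicate 1, 2 or 3 (adjusted p = 0.0910, 0.0616 and 0.0538) or without 4T1.2 replicate 1 or 3 (adjusted p = 0.0769 and 0.128).

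Integrins and laminins changed in unequal parts, with 12 of 33 lower (36.4%) and 8 higher (24.2%), or 5 higher without 4T1.2 replicate 2. Beside Npnt, Itga8 and Itga6, the laminin alpha5 gene Lama5 had 6.42, 6.65 and 6.80 in EMT6.5 and 8.57, 8.76 and 8.47 in 4T1.2 (difference -1.98, SE 0.13, adjusted p = 9.13e-08). Itgb8, whose integrin activates latent TGF-beta, had 8.48, 8.77 and 8.46 in EMT6.5 and 5.47, 5.44 and 5.59 in 4T1.2 (difference 3.08, SE 0.17, adjusted p = 1.41e-08). Both groups of tumours were tight around these values and far from each other.

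Matrix metalloproteinase genes were lower where they passed. Of 27 genes of these proteases and their inhibitors, 6 fell (22.2%) and 2 rose, the inhibitors Timp1 (0.63) and Timp3 (0.56), named after their values were seen. Timp1 passed only when no tumour or 4T1.2 replicate 1 was left out, and Timp3 did not pass without EMT6.5 replicate 1 or 3 or without 4T1.2 replicate 1 or 2 (adjusted p = 0.0671, 0.0879, 0.0726 and 0.0792). Mmp3, stromelysin-1, had 8.45, 8.42 and 8.25 in EMT6.5 and a mean of 10.09 ± 0.26 (SD, n = 3) in 4T1.2, from 9.88 to 10.38 (difference -1.72, SE 0.18, 3.29-fold, adjusted p = 1.02e-05), and 67NR lay below both at a mean of 6.48. Mmp9, a gelatinase that neutrophils also carry, had 6.42, 7.53 and 7.0 in EMT6.5 and 7.88, 8.21 and 8.14 in 4T1.2 (difference -1.09, SE 0.21, adjusted p = 0.00237). The neutrophil collagenase Mmp8 (-1.32) and the interstitial collagenases Mmp1a (-1.20) and Mmp1b (-1.18) were low in both types. Mmp13 differed by -0.98, and its call ended without EMT6.5 replicate 1 or 3 or without 4T1.2 replicate 2 or 3 (adjusted p = 0.169, 0.180, 0.109 and 0.187). The gelatinase Mmp2 did not pass (-0.29, adjusted p = 0.460).

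Among 20 serpins and plasminogen activation genes, 6 rose (30.0%) and 1 fell (5.0%), or 2 fell without EMT6.5 replicate 2. The intracellular serpin Serpinb6b had 10.11, 10.40 and 10.50 in EMT6.5 and 7.11, 7.37 and 7.46 in 4T1.2 (difference 3.03, SE 0.13, adjusted p = 8.01e-10), and the tissue plasminogen activator Plat rose by 1.53. Serpine2, an extracellular thrombin and urokinase inhibitor, had 8.15, 7.74 and 8.37 in EMT6.5 and 9.67, 11.01 and 10.53 in 4T1.2 (difference -2.32, SE 0.26, adjusted p = 1.93e-05).

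Of 28 genes linked to spread to bone and lung, 10 were higher (35.7%) and 4 lower (14.3%). The list holds secreted factors and also membrane proteins such as Cxcr4, Vcam1, Bst2 and Jag1. The osteoclast decoy receptor gene Tnfrsf11b, osteoprotegerin, had 8.29, 8.49 and 8.25 in EMT6.5 and 6.12, 6.10 and 6.13 in 4T1.2 (difference 2.23, SE 0.13, adjusted p = 2.68e-08). Pthlh, which stimulates bone resorption, had 8.56, 8.30 and 8.92 in EMT6.5 and 7.56, 7.33 and 7.64 in 4T1.2 (difference 1.08, SE 0.25, 2.11-fold, adjusted p = 0.00851). The Notch ligand Jag1 (1.40) and the bone morphogen Bmp4 (1.62) rose. The bone sialoprotein gene Ibsp had 7.22, 8.20 and 6.84 in EMT6.5 and 5.90, 5.68 and 5.64 in 4T1.2 (difference 1.68, adjusted p = 0.0297), a call that ended without EMT6.5 replicate 1 or 2 (adjusted p = 0.0524 and 0.128) and without any of 4T1.2 replicates 1 to 3 (adjusted p = 0.0534, 0.0776 and 0.0841). The 4 lower were Lcn2, S100a8, S100a9 and Mmp1a. In the S100 family S100a4, a gene of motile and mesenchymal cells, rose by 1.10 and S100a16 by 1.58.

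Growth factors and their receptors changed often and both ways, with 11 of 42 higher (26.2%) and 10 lower (23.8%), 9 and 6 of them at least 2-fold. Pdgfc, a ligand for the PDGF receptors, had 10.61, 10.74 and 10.70 in EMT6.5 and 7.65, 7.44 and 7.49 in 4T1.2 (difference 3.16, SE 0.12, adjusted p = 3.62e-10). Hgf, the ligand of the Met receptor, had 8.10, 8.46 and 8.27 in EMT6.5 and 6.35, 6.26 and 6.46 in 4T1.2 (difference 1.92, SE 0.14, adjusted p = 3.03e-07), and the lymphangiogenic factor Vegfc rose by 2.03. Fgfr2 had 5.69, 5.49 and 4.94 in EMT6.5 and 8.48, 8.73 and 8.45 in 4T1.2 (difference -3.18, SE 0.17, adjusted p = 1.22e-08), and its ligand Fgf1 fell by 2.30 on the log2 scale.

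In the TGF-beta and BMP family, 5 of 39 rose (12.8%), near the 11.2% of all genes, and 8 fell (20.5%). The activin subunit Inhba (1.80), the activin antagonist Fst (1.70), Tgfb2 and Bmp4 were higher, whereas Bmp7 had 6.48, 6.53 and 6.16 in EMT6.5 and 8.84, 8.46 and 8.59 in 4T1.2 (difference -2.24, SE 0.20, adjusted p = 1.91e-06) and the receptor Tgfbr1 fell by 1.71 on the log2 scale. Among 53 Wnt, hedgehog and Notch genes 7 rose (13.2%) and 6 fell (11.3%), near the 11.2% and 8.48% of all genes. The number that rose was 4 without EMT6.5 replicate 2 or 4T1.2 replicate 2. Axin2, a feedback target of Wnt signalling, had 8.36, 8.25 and 8.10 in EMT6.5 and 5.72, 5.64 and 5.58 in 4T1.2 (difference 2.59, SE 0.12, 6.02-fold, adjusted p = 1.82e-09). The hedgehog effector Gli3 (-2.33) and the Wnt antagonist Sfrp1 (-1.24) fell with Hhip.

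Of 39 Hox genes, which set position along the body axis, 3 rose (7.69%) and 9 fell (23.1%), against 11.2% and 8.48% of all genes. The HoxA cluster supplied the genes that fell most. Hoxa2 had 6.07, 6.09 and 5.79 in EMT6.5 and 7.76, 8.20 and 8.63 in 4T1.2 (difference -2.21, SE 0.18, adjusted p = 6.35e-07), and Hoxa5 had 7.29, 7.79 and 7.47 in EMT6.5 and 10.27, 9.18 and 9.34 in 4T1.2 (difference -2.08, SE 0.23, adjusted p = 1.56e-05). Hoxa6 (-1.31) and Hoxa4 (-0.87) fell, and Hoxc5 (0.86) and Hoxc6 (0.80) rose.

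Hypoxia-responsive genes fell for some members and rose for others, with 10 of 39 lower (25.6%) and 6 higher (15.4%). Stc1, a secreted glycoprotein, had 6.76, 6.85 and 6.99 in EMT6.5 and 10.14, 9.88 and 9.83 in 4T1.2 (difference -3.08, SE 0.23, adjusted p = 3.08e-07). Car9, carbonic anhydrase 9, had 6.16, 6.58 and 6.42 in EMT6.5 and 8.15, 7.88 and 8.47 in 4T1.2 (difference -1.78, SE 0.18, adjusted p = 1.00e-05). The vasodilator peptide gene Adm (1.27), the lactate exporter Slc16a3 (1.27) and the glycolytic enzyme Pgk1 (0.59) were higher. Of 30 glycolytic and pentose phosphate genes, 5 rose (16.7%) and 4 fell (13.3%). The number that rose was 3 without EMT6.5 replicate 2, EMT6.5 replicate 3, 4T1.2 replicate 1 or 4T1.2 replicate 2. The number that fell was 2 without EMT6.5 replicate 1. The fructose transporter Slc2a5 had 7.27, 7.5 and 7.58 in EMT6.5 and 9.43, 9.33 and 9.30 in 4T1.2 (difference -1.90, SE 0.13, adjusted p = 9.13e-08), and 67NR had a mean of 4.56.

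Antioxidant and detoxification genes changed in many members, with 13 of 39 higher (33.3%) and 9 lower (23.1%). Nqo1, a quinone reductase and target of NRF2, had 8.32, 8.30 and 8.58 in EMT6.5 and 6.16, 6.09 and 6.17 in 4T1.2 (difference 2.26, SE 0.11, adjusted p = 2.97e-09). The glutathione reductase gene Gsr had 9.80, 9.56 and 9.59 in EMT6.5 and 7.82, 7.87 and 7.49 in 4T1.2 (difference 1.92). The transferases Gsta4 (1.77) and Gsto1 (1.60) rose and Gstm5 fell (-1.46). The cystine transporter Slc7a11 had 7.21, 8.25 and 7.59 in EMT6.5 and 9.61, 9.25 and 9.46 in 4T1.2 (difference -1.75, SE 0.30, adjusted p = 0.000962).

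Of 36 cholesterol and fatty acid synthesis genes, 12 rose (33.3%) and 1, Acacb (-0.40), fell, with a median of 0.41. Me1, which supplies NADPH for lipid synthesis, rose by 1.59. The count rising was 7 without EMT6.5 replicate 2, without EMT6.5 replicate 3 or without 4T1.2 replicate 2. Among 69 ribosomal protein genes 18 rose (26.1%), or 11 without EMT6.5 replicate 2, by at most the 0.72 of Rpl8. The 1 that fell, Rpl37 (-0.31), did so only in the full fit and without EMT6.5 replicate 2.

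Of 27 immediate early genes 8 rose (29.6%), or 5 without EMT6.5 replicate 3, and 4 fell (14.8%). Ier3 (1.41) and Egr1 (1.36) led those that rose, and Atf3 (-1.13) and Jun (-0.86) those that fell. Jun did not pass without EMT6.5 replicate 1 or 3 or without 4T1.2 replicate 2 (adjusted p = 0.122, 0.0789 and 0.107). Among 27 immune checkpoint genes 1 rose (3.7%) and 3 fell (11.1%), against 11.2% and 8.48% of all genes, with a median of 0.02. The inhibitory receptor Havcr2, or TIM-3, had 8.24, 8.21 and 8.57 in EMT6.5 and 7.14, 7.13 and 6.97 in 4T1.2 (difference 1.26, SE 0.20, adjusted p = 0.000456). The ectonucleotidase Nt5e, or CD73, had 9.83, 10.03 and 9.82 in EMT6.5 and 11.20, 10.90 and 10.78 in 4T1.2 (difference -1.07, SE 0.16, adjusted p = 0.000223), and the costimulatory receptor Tnfrsf18 fell by 1.16 on the log2 scale. The transcription factor Ebf1, of B cells, adipocytes and pericytes, was the 1 gene of 23 on the B cell list that passed. It was at 8.80, 8.71 and 8.86 in EMT6.5 and 6.74, 6.16 and 6.20 in 4T1.2 (difference 2.42, SE 0.21, adjusted p = 1.76e-06), so it did not follow the B cell signal of EMT6.5 tumour 1.

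The called genes were unevenly spread over chromosomes, a view chosen after the values were seen and given without a test. Of 20555 genes placed on an autosome or X in RefSeq, 11.6% were higher and 8.67% lower in EMT6.5. On X, 182 of 809 genes were higher (22.5%) and 24 lower (2.97%). Chromosome 19 had 184 of 718 higher (25.6%) and 27 lower, and chromosome 8 had 219 of 997 higher (22%) and 42 lower. Chromosome 12 ran the other way, with 44 of 638 higher (6.90%) and 145 lower (22.7%).

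Among genes above the median signal, the median difference was 0.33 on X (357 genes), 0.35 on chromosome 19, 0.30 on chromosome 8 and -0.26 on chromosome 12, against 0.06 over all 10562 such genes. Set against the mean of the 5 types, the median of these X-linked genes was 0.01 in EMT6.5, -0.42 in 4T1.2 and 0.02 in 67NR, so 4T1.2 was the type that lay apart. On chromosome 8 these medians were -0.03, -0.34 and -0.02, on chromosome 19 0.20, -0.17 and -0.02, and on chromosome 12 -0.08, 0.18 and -0.23. Xist, which coats the inactive X, had 10.60, 10.16 and 10.33 in EMT6.5 and 10.33, 10.71 and 10.28 in 4T1.2 (difference -0.08, adjusted p = 0.790), in tumours that include cells of female hosts. DNA copy number was not measured, so its part in these shares was not tested.

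**Figure D5:**
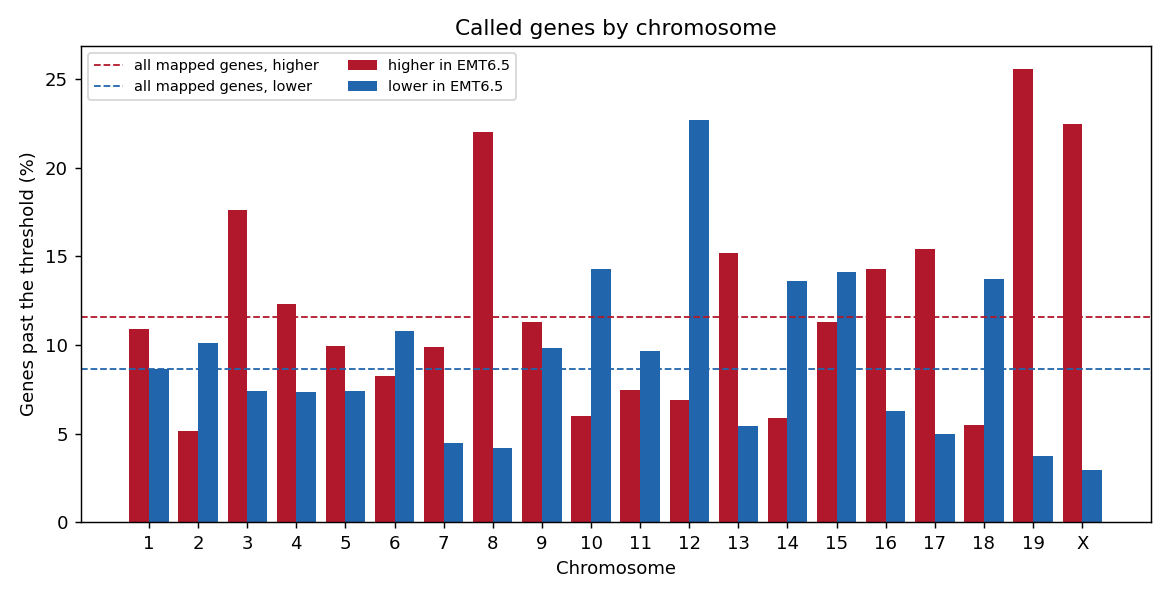
Share of genes called higher (red, left bar) and lower (blue, right bar) in EMT6.5 on each chromosome, in percent, with dashed lines at the shares of all placed genes, 11.6% and 8.67%. Chromosomes 8, 19 and X stand out for genes higher and chromosome 12 for genes lower.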

How the data were processed

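RNA of whole primary tumours of 5 types, from 3 mice each, was read on Affymetrix arrays (Mouse Gene 1.0 ST). For 35556 transcript clusters the authors deposited log2 values, made by background correction, normalization and summarization. GCRMA is given in the methods, Partek 6.6 with RMA in the submitters' processing notes, so the algorithm is not settled, and it bears on low signals and their ratios. A workbook sheet held the same values (0 of 533340 differed), and 30 columns of per-sample values in its other sheets were not used. Sheets that hold the authors' own comparisons were not used.

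Of the clusters, 25440 carry a symbol, naming 22008 genes, 1857 of them with several clusters, of which the brightest on average was taken. The arrays of the 6 tumours had medians of 6.39 to 6.44 and were used as deposited. In R 4.3.3, limma 3.58.1 was fitted to all 15 tumours with type as the only term (residual degrees of freedom 10), and tested on simulated data. Replicate numbers did not pair the tumours, which came from different mice. RefSeq names and chromosomes were found for 20584 genes. Of 1288 list entries 1277 were measured, 36 under older symbols.

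Members, lists and tests were chosen with earlier results of these data known. Genes named were the 12 largest called differences per direction whose tumours do not overlap, up to 6 called members of each list, genes the study names, and lineage markers. Members of counts of 5 or fewer could be named beyond this, after their values were seen. Alternatives were the workbook table, array centring, quantile normalization, a signal filter, one-way analysis of variance, fitting the 6 tumours alone, an intensity trend with a robust prior, the tumour number as a block, the mean of a gene's clusters, adjustment over 1 cluster per gene, and each tumour left out. Leaving out EMT6.5 tumours 1 and 3 together was added after seeing the data. Some list members are not reported here by name.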

Additional observations from a re-analysis of the deposited data

How the results depend on the processing

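Of 219 named genes that were called, none changed direction when 1 tumour was left out. The same held under array centring, quantile normalization and the mean of a gene's clusters. The other alternatives that keep all 6 tumours leave each log2 difference unchanged by design, so they bear on the call alone. Under the signal filter 172 of the 219 had a value. In at least 1 setting 64 lost the call, the pair of tumours included. Without 1 tumour, higher genes numbered 1866 to 2426 and lower genes 1505 to 1670 (at least 2-fold, 523 to 619 and 441 to 494). With the 6 tumours alone, 1713 and 1298 passed. Centring gave 62.9% of called genes higher and the arrays as deposited 56.9%. With the tumour number as a replicate block, 2379 were higher and 1787 lower; the numbers do not pair the tumours, since deviations of same-numbered tumours correlated at -0.06, 0.02 and -0.13, and the block ended 3 named calls.

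Without both EMT6.5 tumours 1 and 3, an alternative chosen after seeing the data that leaves 1 EMT6.5 tumour and assumes it varies like the others, 1317 genes were higher and 1052 lower. Members higher were then 13 for mitosis, 16 for replication, 4 for class I, 4 for cholesterol and 0 for muscle, and 117, 117 and 108 genes were higher on chromosome X, chromosome 8 and chromosome 19 and 85 lower on chromosome 12. The muscle genes Acta1 (-0.26), Atp2a1 (-0.094), Des (-0.071), Myh4 (-0.013) and Tnnc2 (-0.26) reversed there, without passing, while without EMT6.5 replicate 2 alone they stood at 3.11, 2.43, 2.20, 4.77 and 3.13. With the 6 tumours alone, members were 11 lower for interferon and 10, 19 and 0 higher for fibroblast, mitosis and muscle. One-way analysis of variance gave 7 for cholesterol and 0 for muscle. The signal filter, with fewer genes tested, gave 10 lower for neutrophils and 3 higher for muscle. Leaving out 1 tumour gave 13 to 24 lower for interferon, 1 to 19 higher for muscle, 19 to 36 for mitosis, 20 to 33 for replication and 7 to 11 for cholesterol, and 146 to 178, 163 to 202 and 145 to 176 genes higher on X, 8 and 19 and 119 to 134 lower on 12. The cause of these changes was not tested. Signals near the background limit every large ratio.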
